A study of Mus with 18 samples.

Results

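Caffeic acid (CA) and chlorogenic acid (CGA) were compared, as a pair, with lipopolysaccharide (LPS) alone in the mouse macrophage-like line RAW264.7. Both are hydroxycinnamic acids with a catechol ring, found in coffee and many other plants, and CGA is the ester of caffeic acid with quinic acid. The members were chosen by treatment label and comprised 9 of the 18 libraries of the series. Of these, 3 libraries came from cells given LPS at 1 µg/mL with 100 µM CA, 3 from cells given LPS with 100 µM CGA, and 3 from cells given LPS alone. All were sampled after 6 h. The other 9 libraries came from cells given LPS with 100 µM of a cysteine adduct of CA (CACys) or of CGA (CGACys), and from untreated control cells, with 3 in each group. All 18 entered 1 model, and the adduct libraries also served as a comparison below.

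In macrophages LPS acts through Toll-like receptor 4, which signals along an arm that uses the adaptor MyD88 and activates NF-kB, and along an arm that uses the adaptor TRIF and activates interferon regulatory factors. The second arm leads to secretion of interferon beta, which binds its receptor on the same and neighbouring cells and switches on antiviral genes through a complex of STAT proteins and IRF9. A separate programme is run by NRF2, a transcription factor held in check by KEAP1 and released when cells meet electrophiles or oxidants, whose targets make glutathione, reduce thioredoxin and detoxify quinones.

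The question was what both free acids share against LPS alone. The main contrast therefore set the mean of the CA and CGA groups against the LPS group, and a second test asked which genes differed from LPS with each acid on its own. No group received an acid without LPS, so changes are those of LPS-treated cells. RAW264.7 is a single transformed line, and whether its replicates were grown as separate cultures is not labelled, so p-values reflect the spread between these libraries alone.

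The 9 libraries held 18579427 to 25624935 counts each, and 13251 of 54532 genes had enough counts to be tested. Replicate 2 with CA stood apart from the other libraries, with 5.08% of its counts in ribosomal protein genes against 4.28% and 4.29% in its fellow replicates. Replicate 2 with LPS alone had 1.20% mitochondrial counts, against 1.46% and 1.58% in replicates 1 and 3. Results that rest on 1 library are given with and without it. Markers of macrophages were present in all 9 libraries, with a summed level of 6786 to 7477 CPM (counts scaled to library size) in the acid libraries and 7676 to 7904 CPM with LPS alone. The markers of neutrophils and mast cells summed to 10.3 to 16.5 CPM in the acid libraries and 8.83 to 11.98 CPM with LPS alone. Those of lymphocytes summed to 0.329 to 0.906 CPM in the acid libraries and 0.754 to 1.10 CPM with LPS alone. Those of fibroblasts, epithelium and endothelium summed to 8.60 to 13.9 CPM in the acid libraries and 16.6 to 18.2 CPM with LPS alone. No count in any of these 9 libraries was found for 6 of 12, 3 of 10 and 4 of 14 of these markers, in the same order. The others had counts. The highest of each list were S100a8 (mean 9.86 CPM with the acids, 7.81 CPM with LPS alone), Pax5 (0.291 and 0.476 CPM) and Pecam1 (7.08 and 10.3 CPM). Of 9 tested markers of other cell types 1 was called with the acids pooled, Pecam1, which myeloid cells also express, at a log2 change of -0.58 (adjusted p = 0.0129). Its adjusted p reached 0.0577 when LPS replicate 3 was omitted, 0.106 when LPS replicate 2 was, and 0.148 with both acids coded as a single group. With CA alone the neutrophil markers Ly6g and S100a8 were called higher, at log2 1.44 (adjusted p = 0.00598) and 0.49 (adjusted p = 0.0411). Camp, the other of the 3 tested in that list, was not called with CA, and its pooled log2 change was -0.46 (adjusted p = 0.368). Ly6g was low throughout, with means of 1.48 CPM over the acid libraries and 0.694 CPM with LPS alone. The part of other cells in the results was not tested. In bulk RNA, fewer cells of a type and less RNA per cell cannot be told apart.

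Against LPS alone the pooled acids shifted more genes down than up. By edgeR's quasi-likelihood test, with p-values adjusted by Benjamini-Hochberg across every gene tested, 668 genes passed an adjusted p of 0.05 (5.04% of the genes tested), of which 531 fell (4.01%) and 137 rose (1.03%). The changes were small: 46 of the 668 reached 1.5-fold, 33 of them downward, and 10 reached 2-fold. The median log2 change of all tested genes was 0.00. In 497 of the called genes every acid library lay outside the range of the LPS libraries, while over all tested genes 678 had all 6 acid libraries below the 3 LPS libraries (5.12%) and 315 had all 6 above (2.38%). Omission of LPS replicate 2 reduced the count to 235 and that of LPS replicate 1 to 388, while omission of any other of the 9 libraries gave 528 to 853.

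The test that required a change with each acid on its own was stricter. For each gene it took the larger of the 2 p-values, and it called 59 genes (0.445%), of which 57 were lower with both acids (0.43%) and 2 were higher (0.0151%). All 59 were also among the 668. Both contrasts use the same 3 LPS libraries, so a deviation of those libraries enters both. Leaving out LPS replicate 1, LPS replicate 2 or CGA replicate 3 left 0 genes, although 655, 514 and 598 genes then had an unadjusted p under 0.05. The count was 2 without CGA replicate 1, 14 without CGA replicate 2, 28 without CA replicate 3 and 31 without CA replicate 1. It was 106 without CA replicate 2 and 184 without LPS replicate 3, and DESeq2 called 164. Of the 59 genes 58 were called again without LPS replicate 3, 37 without CA replicate 2 and 28 without CA replicate 1. It was 27 without CA replicate 3 and 13 without CGA replicate 2. Each both-acid call described below is that of the full set of libraries, and its loss without single libraries is not given gene by gene.

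Taken one at a time, CA passed the threshold in 1023 genes (7.72%; 305 higher, 2.3%, and 718 lower, 5.42%). CGA passed it in 96 (0.724%; 9 higher, 0.0679%, and 87 lower, 0.657%). That gap between counts is not a test of a difference between the acids, which was made directly and is given further below.

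**Figure D1:**
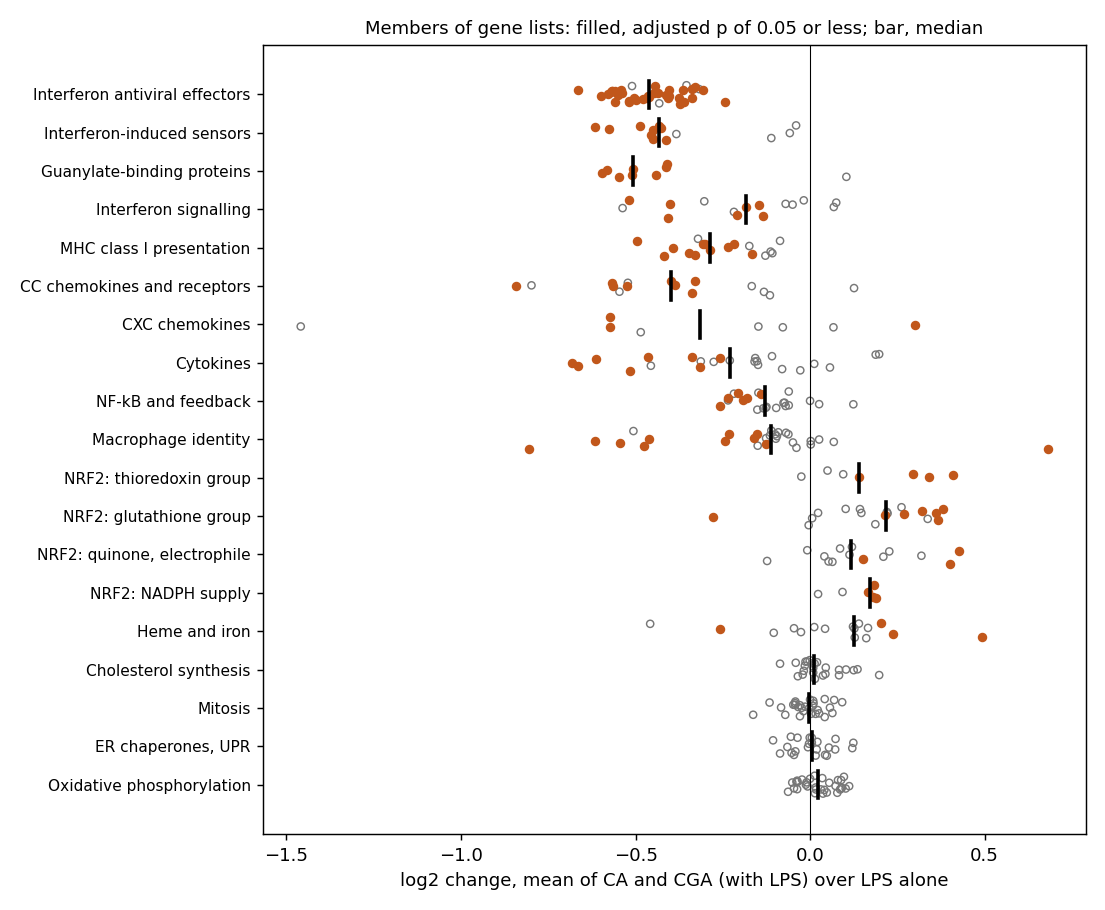
Each point is 1 gene of a gene list, placed by its log2 change of the mean of CA and CGA (both with LPS) over LPS alone. Filled points passed an adjusted p of 0.05 (edgeR) and the vertical bar is the list's median. The interferon, class I and chemokine lists lie to the left of 0 and the NRF2 lists to the right, with most points within 0.7 of 0.

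Of the gene groups described here, the genes that interferon induces had the highest share of members lower with the acids. The lists of antiviral effectors, of sensors and of guanylate-binding proteins (GBPs) held 61 tested genes, of which 52 fell and 0 rose, with a median log2 change of -0.45 against 0.00 over all genes. The shares over all genes were 4.01% lower and 1.03% higher. By level, the 6 acid libraries lay below the 3 LPS libraries in 52 of the 61 genes, against 5.12% of all genes. The median was -0.53 with CA and -0.39 with CGA, and 10 of the 61 passed the both-acid test. Without LPS replicate 2 the number that fell was 27. Many of these genes belong to families of close copies (Ifit, Oas, Gbp), and how the counting split reads between copies is not given in the sources used here.

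Among the antiviral effectors 35 of 39 fell. Ifit3 (ENSMUSG00000074896, chromosome 19, 34583119 to 34588982, build GRCm38.p6) belongs to a family whose proteins bind foreign RNA. It stood at 89.6, 98.3 and 107 CPM with CA and 100.2, 114 and 96.2 CPM with CGA, against 141, 183 and 133 CPM with LPS alone. Every acid library lay below every LPS library, and the pooled log2 change was -0.60 (SE 0.11, adjusted p = 0.00577). Mx1 (ENSMUSG00000000386, chromosome 16, 97447035 to 97462906), a dynamin-like GTPase that blocks orthomyxoviruses, had 72.5, 64.3 and 73.5 CPM with CA and 90.2, 93.1 and 78.6 CPM with CGA, against 112, 133 and 100 CPM with LPS alone. Its groups did not overlap either, with the CA libraries lowest, and the pooled log2 change was -0.56 (SE 0.10, adjusted p = 0.00332). In untreated control cells Ifit3 averaged 0.658 ± 0.0462 CPM and Mx1 0.254 ± 0.0166 CPM (SD, n = 3), so the levels with the acids remained far above those without LPS. Ifit1, of the same family as Ifit3, had 304, 344 and 362 CPM with CA and 342, 374 and 315 CPM with CGA, against 491, 554 and 418 CPM with LPS alone. All acid libraries were below all LPS libraries and the pooled log2 change was -0.52 (SE 0.11, adjusted p = 0.0123), but its adjusted p was 0.0614 without LPS replicate 1 and 0.117 without LPS replicate 2.

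Among effectors that passed the both-acid test, chosen here after their values were seen, Oas1a makes the 2-5A messenger that activates RNase L (ENSMUSG00000052776, chromosome 5, 120896256 to 120907544). Its level was 148, 144 and 137 CPM with CA and 159.6, 161 and 149.6 CPM with CGA, against 188, 215 and 179 CPM with LPS alone. The acid libraries were tightly grouped below the LPS libraries, at log2 -0.44 with CA (adjusted p = 1.92e-05) and -0.31 with CGA (adjusted p = 0.0118), with a both-acid adjusted p of 0.0154. Usp18, which removes ISG15 from proteins and damps the interferon receptor, had 391, 421 and 403.6 CPM with CA and 434, 445 and 382 CPM with CGA, against 581, 689.7 and 532 CPM with LPS alone. Again no acid library reached the lowest LPS library, and the log2 change was -0.57 with CA (adjusted p = 0.00236) and -0.52 with CGA (adjusted p = 0.0341), with a both-acid adjusted p of 0.0428. Isg15 itself, the ubiquitin-like modifier, was lower with each acid at log2 -0.44 with CA (adjusted p = 0.00688) and -0.50 with CGA (adjusted p = 0.0251) but missed the both-acid threshold at an adjusted p of 0.0535. Its pooled change was -0.47 (SE 0.08, adjusted p = 0.00207). Rsad2, which encodes the antiviral enzyme viperin and was also chosen after its values were seen, was not called at a pooled log2 change of -0.43 (SE 0.12, adjusted p = 0.0676), but was called in a fit of the compared groups alone (adjusted p = 0.0045) and with a replicate block (0.0482). Its levels nevertheless did not overlap, with 1373, 1203 and 1408 CPM with CA and 1432, 1512 and 1272 CPM with CGA, against 1811, 2066 and 1653 CPM with LPS alone.

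Of the sensors, which detect nucleic acids in the cell, 9 of 13 fell. Ifi204, a DNA-binding protein of the PYHIN family (ENSMUSG00000073489, chromosome 1, 173747293 to 173767069), had 176, 199.5 and 186 CPM with CA and 203, 227 and 188 CPM with CGA, against 288, 338 and 252 CPM with LPS alone. The acid libraries were all below the LPS libraries. The log2 change was -0.64 with CA (adjusted p = 0.000947) and -0.51 with CGA (adjusted p = 0.0359), and the both-acid adjusted p was 0.0443. Its pooled change kept its call in all 17 alternatives tried. The endosomal receptor genes Tlr3 and Tlr9 had pooled log2 changes of -0.49 (adjusted p = 0.0147) and -0.46 (adjusted p = 0.0022). The Tlr9 call was lost with both acids coded as a single group (adjusted p = 0.0658). The Tlr3 call was lost without LPS replicate 1 (adjusted p = 0.0639) and without LPS replicate 2 (adjusted p = 0.121).

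Of the GBPs, GTPases that attack the compartments of intracellular microbes, 8 of 9 fell. Gbp5, which also promotes inflammasome assembly (ENSMUSG00000105504, chromosome 3, 142496934 to 142522344), had 87.3, 86.5 and 102 CPM with CA and 108, 113 and 95.9 CPM with CGA, against 150.1, 159.8 and 133 CPM with LPS alone. The highest acid library stood below the lowest LPS library, and the pooled log2 change was -0.58 (SE 0.08, adjusted p = 0.000623). Its change was -0.68 with CA (adjusted p = 0.000328) and -0.48 with CGA (adjusted p = 0.0341), with a both-acid adjusted p of 0.0428. Gbp4 had 42.6, 45.0 and 46.6 CPM with CA and 53.9, 59.9 and 50.4 CPM with CGA, against 69.9, 79.3 and 62.4 CPM with LPS alone, with the CA libraries below the CGA libraries and both below LPS. Its pooled log2 change was -0.51 (SE 0.08, adjusted p = 0.000485), and both Gbp5 and Gbp4 kept their pooled calls in all 17 alternatives.

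Genes of interferon signalling itself moved less evenly: 7 of 15 fell and 0 rose, at a median log2 change of -0.18, while 4.01% of all genes fell. Irf7, the regulatory factor that amplifies type I interferon production (ENSMUSG00000025498, chromosome 7, 141263183 to 141266499), had 331, 328 and 336 CPM with CA and 393, 402 and 341 CPM with CGA, against 497, 594 and 435 CPM with LPS alone. No acid library overlapped the LPS range, and the pooled log2 change was -0.52 (SE 0.09, adjusted p = 0.00257). Stat2, which carries the receptor's signal to the nucleus, was lower at log2 -0.41 (adjusted p = 0.0323), a call lost without LPS replicate 1 (adjusted p = 0.137), LPS replicate 2 (0.22), CA replicates 1 and 2 (0.069 and 0.0685), and CGA replicates 1 and 3 (0.054 and 0.0712), or with no expression filter (0.0731). Ifnb1, the gene of interferon beta, was close to the limit of detection, with 0.0476, 0.699 and 0.107 CPM with CA and 0.208, 0.433 and 0.226 CPM with CGA, against 0.166, 0.670 and 0.485 CPM with LPS alone. The groups overlapped widely, the pooled log2 change was -0.54 (SE 0.55, adjusted p = 0.747), and no difference was detectable at this depth.

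**Figure D2:**
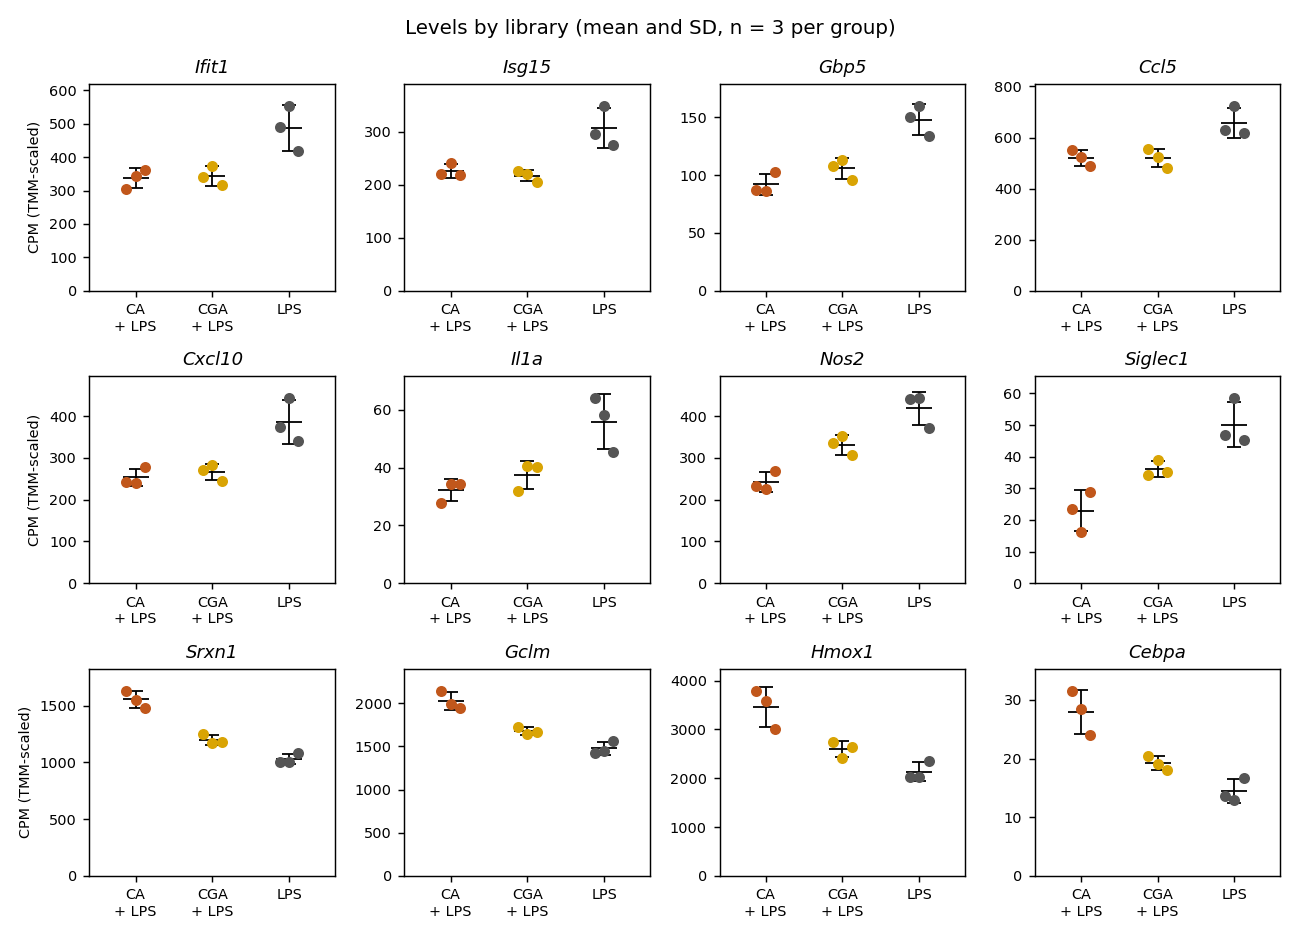
Levels of 12 genes by library in CPM (y axis from 0), with CA + LPS, CGA + LPS and LPS alone from left to right. Points are libraries, and the mark and bar are the mean and SD (n = 3). The interferon, chemokine, Il1a, Nos2 and Siglec1 panels lie lower with both acids than with LPS alone, while Srxn1, Gclm, Hmox1 and Cebpa stand highest with CA and between with CGA.

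Genes of MHC class I presentation, which interferon also induces, were lower with the acids in 11 of 17 cases, and 0 were higher, at a median log2 change of -0.29. Of all tested genes 4.01% were lower. H2-T23, a nonclassical class I molecule recognised by natural killer cell receptors (ENSMUSG00000067212, chromosome 17, 36029977 to 36032701), had 113, 122 and 107 CPM with CA and 128, 124 and 111 CPM with CGA, against 147, 170.4 and 145 CPM with LPS alone. All acid libraries were below all LPS libraries, and it passed the both-acid test at log2 -0.44 with CA (adjusted p = 0.000224) and -0.35 with CGA (adjusted p = 0.0237), with a both-acid adjusted p of 0.0297. Nlrc5, the transactivator of class I genes, had 70.3, 60.2 and 78.0 CPM with CA and 93.8, 97.3 and 80.1 CPM with CGA, against 121, 119 and 95.1 CPM with LPS alone. Here CGA overlapped LPS, and the pooled log2 change of -0.50 (SE 0.09, adjusted p = 0.00484) came with -0.69 with CA and -0.31 with CGA, and its adjusted p was 0.0533 with both acids coded as a single group. Tap1, a subunit of the peptide transporter, changed by -0.42 (adjusted p = 0.0183) and lost its call without LPS replicate 1 (adjusted p = 0.0623) or LPS replicate 2 (0.107). Omission of LPS replicate 1 left 7 genes that fell, and of LPS replicate 2 left 4.

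Among 23 chemokines and their receptors 10 fell and 1 rose, with a median log2 change of -0.40, beside 4.01% and 1.03% of all genes. Ccl7, a ligand of CCR2 that draws monocytes (ENSMUSG00000035373, chromosome 11, 82045712 to 82047525), changed most of the named genes in this group. It had 19.6, 28.6 and 24.0 CPM with CA and 29.1, 34.5 and 35.2 CPM with CGA, against 53.4, 57.0 and 41.5 CPM with LPS alone, with CA lowest, CGA between and no overlap with LPS, and a pooled log2 change of -0.84 (SE 0.12, adjusted p = 0.000764). Ccl12, a second monocyte attractant, had 12.5, 12.1 and 11.9 CPM with CA and 15.4, 14.2 and 13.5 CPM with CGA, against 20.4, 20.9 and 17.4 CPM with LPS alone. These levels also did not overlap, at a pooled log2 change of -0.57 (SE 0.10, adjusted p = 0.000485). Ccl2, the main monocyte attractant, was lower at log2 -0.52 (adjusted p = 0.0135), but not without LPS replicate 1 (adjusted p = 0.0841) or LPS replicate 2 (0.127), nor in a fit of the compared groups alone (0.0585).

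Of the CXCR3 ligands, which attract T cells and are interferon-induced, Cxcl11 had 21.7, 19.8 and 20.2 CPM with CA and 24.4, 25.7 and 19.7 CPM with CGA, against 30.2, 38.4 and 29.1 CPM with LPS alone. The acid libraries again lay below the LPS libraries and the pooled log2 change was -0.57 (SE 0.10, adjusted p = 0.000986). Cxcl10 was lower by a similar amount, at log2 -0.57 (adjusted p = 0.00532), with an adjusted p of 0.0514 without LPS replicate 2. Ccl5, an attractant of T cells and monocytes chosen after its values were seen, had 551, 523 and 489.6 CPM with CA and 553, 524 and 482 CPM with CGA, against 631, 724 and 618 CPM with LPS alone. The CA and CGA libraries covered about the same range, below that of LPS, at log2 -0.34 with CA (adjusted p = 0.000681) and -0.34 with CGA (adjusted p = 0.0118) and a both-acid adjusted p of 0.0154. Ccl9, a ligand of CCR1 also chosen after its values were seen, passed the same test at log2 -0.39 with CA and -0.28 with CGA (both-acid adjusted p = 0.0154). Cxcl3, a neutrophil attractant, went the other way, with 80.5, 82.5 and 68.6 CPM with CA and 70.1, 61.3 and 61.7 CPM with CGA, against 53.3, 54.1 and 64.2 CPM with LPS alone. Its pooled log2 change of 0.30 (SE 0.09, adjusted p = 0.0482) was near the threshold, 1 LPS library lay within the range of CGA, and the call was lost when any of LPS replicates 1 and 2, CA replicates 1 and 2 or CGA replicates 1, 2 and 3 was left out (adjusted p of 0.0523 to 0.273). It was also lost with both acids coded as a single group (0.163), a replicate block (0.061) or RLE factors, another scaling (0.0512).

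Of 23 cytokine genes 8 fell and 0 rose, beside 4.01% and 1.03% of all genes, and Tnf, Il1b, Il6 and Il10 were not among those called. Il1a, the interleukin 1 alpha gene (ENSMUSG00000027399, chromosome 2, 129299609 to 129310186), had 27.9, 34.2 and 34.5 CPM with CA and 31.9, 40.5 and 40.1 CPM with CGA, against 64.0, 58.2 and 45.4 CPM with LPS alone. All acid libraries lay below the lowest LPS library, the pooled log2 change was -0.68 (SE 0.10, adjusted p = 0.000574), and it was the 1 cytokine that passed the both-acid test (adjusted p = 0.0416). Tnfsf15, a TNF family member that acts on lymphocytes and endothelium, had 8.80, 7.41 and 10.5 CPM with CA and 10.3, 12.7 and 13.3 CPM with CGA, against 15.7, 14.8 and 13.9 CPM with LPS alone, with a pooled log2 change of -0.52 (SE 0.11, adjusted p = 0.00286). Its levels did not overlap, although the highest CGA library came close to the lowest LPS library. Without LPS replicate 2 the number of cytokine genes that fell was 4.

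Il1b had 389, 536 and 516 CPM with CA and 569, 697 and 714 CPM with CGA, against 874, 846 and 597 CPM with LPS alone. The CGA libraries straddled the lowest LPS library, and the pooled log2 change of -0.46 (SE 0.13, adjusted p = 0.0627) missed the threshold, but passed it without LPS replicate 3 (adjusted p = 0.00473) or CA replicate 2 (0.044) and by DESeq2 (0.0191). Tnf had 683, 1039 and 1080 CPM with CA and 696, 842 and 916 CPM with CGA, against 1029, 1091 and 786 CPM with LPS alone, a wide spread within each group, and a pooled log2 change of -0.15 (SE 0.15, adjusted p = 0.757). Il6 stood at log2 -0.23 (adjusted p = 0.141) and Il10 at -0.11 (adjusted p = 0.788), neither of them called. Il6 was called with no expression filter (adjusted p = 0.000713), without LPS replicate 3 (0.00155) and by DESeq2 (0.0404).

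Within the Toll-like receptor and NF-kB pathway the changes were smaller still, and none of the tested receptor genes Tlr4, Ly96 and Cd14 was called. Of 20 genes listed for the receptor complex, its adaptors and kinases 4 fell, and of 22 NF-kB genes and feedback inhibitors 6 fell. The first list also held Acod1, an itaconate gene that was among its 4 and is counted again below. No gene of either list rose. Over all genes 4.01% fell and 1.03% rose. Nfkb1, the p105 precursor of the NF-kB p50 subunit (ENSMUSG00000028163, chromosome 3, 135584655 to 135691969), had 728, 704 and 756 CPM with CA and 798, 817 and 765 CPM with CGA, against 895, 892 and 843 CPM with LPS alone, every acid library below every LPS library, and a pooled log2 change of -0.20 (SE 0.04, adjusted p = 0.000764). Irak2, a kinase downstream of MyD88, had 186, 184 and 193 CPM with CA and 201, 211 and 203 CPM with CGA, against 229, 247 and 221 CPM with LPS alone, also without overlap, and changed by -0.24 (SE 0.04, adjusted p = 0.000509). Ikbke, a kinase of the interferon arm, changed by -0.25 (SE 0.04, adjusted p = 0.000419), and its levels were 358, 358 and 389 CPM with CA and 418, 427 and 407 CPM with CGA, against 476, 482 and 441 CPM with LPS alone, with no overlap. All 3 kept their calls in all 17 alternatives. Peli1, a ubiquitin ligase of Toll-like receptor signalling chosen after its values were seen, had the smallest both-acid p of all genes, with 112, 108 and 112 CPM with CA and 112, 116 and 108 CPM with CGA, against 139.9, 143 and 132 CPM with LPS alone. Both acids gave the same log2 change to within 0.02, at -0.32 with CA (adjusted p = 0.000128) and -0.30 with CGA (adjusted p = 0.0107).

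Downstream effector enzymes of the activated macrophage were lower in 4 of 9 genes for nitric oxide, arginine and itaconate metabolism, beside 4.01% of all genes. Nos2, the inducible nitric oxide synthase (ENSMUSG00000020826, chromosome 11, 78920787 to 78960226), had 232, 224 and 269 CPM with CA and 336, 353 and 306 CPM with CGA, against 441, 442 and 372 CPM with LPS alone. The groups stood apart with CA lowest, and the pooled log2 change was -0.56 (SE 0.10, adjusted p = 0.00555), with an adjusted p of 0.0557 without LPS replicate 2 and 0.0624 with both acids coded as a single group. Acod1, which makes itaconate, had 1959, 1789 and 1903 CPM with CA and 1941, 1978 and 1901 CPM with CGA, against 2250, 2388 and 2103 CPM with LPS alone. It passed the both-acid test at log2 -0.25 with CA (adjusted p = 0.000327) and -0.21 with CGA (adjusted p = 0.0237). Of all tested genes 5.04% were called in either direction. Of 13 prostaglandin and leukotriene genes Ptgs1, the constitutive cyclooxygenase, was the 1 called, and it rose. It had 121, 121 and 115 CPM with CA and 123, 114 and 114 CPM with CGA, against 96.3, 97.9 and 103 CPM with LPS alone, with a pooled log2 change of 0.25 (SE 0.04, adjusted p = 0.000915) and 0.26 with CA and 0.23 with CGA, and was 1 of the 2 genes higher in the both-acid test. In untreated cells it averaged 303 ± 7.75 CPM (SD, n = 3), above all of these. The inducible Ptgs2 was not called, at 0.02 (adjusted p = 0.905).

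Another gene of the both-acid list, Lcn2, chosen after its values were seen, encodes a secreted siderophore-binding protein. It had 135, 132 and 129 CPM with CA and 149, 144 and 144 CPM with CGA, against 169, 179.8 and 169 CPM with LPS alone, with log2 changes of -0.38 with CA and -0.25 with CGA (both-acid adjusted p = 0.0324). No acid library reached the LPS range.

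NRF2 targets moved the other way. Of 44 tested target genes 17 rose and 1 fell, with a median log2 change of 0.17 against 0.00 over all genes, and the median was 0.26 with CA and 0.08 with CGA. The shares over all genes were 1.03% higher and 4.01% lower. With CA alone 23 passed the threshold upward and with CGA alone 1. The number that rose with the acids pooled dropped to 10 when LPS replicate 1 was left out, to 9 when LPS replicate 2 was, and to 6 when both acids were coded as a single group. By subgroup, 4 of 7 thioredoxin genes, 6 of 18 glutathione genes, 3 of 14 quinone and electrophile genes and 4 of 6 NADPH genes rose.

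In the thioredoxin group Srxn1, the sulfiredoxin that repairs peroxiredoxins (ENSMUSG00000032802, chromosome 2, 152105524 to 152111376), had 1630, 1553 and 1478 CPM with CA and 1249, 1167 and 1182 CPM with CGA, against 999, 1005 and 1080 CPM with LPS alone. The order was CA, CGA, LPS with no overlap, and the pooled log2 change was 0.41 (SE 0.05, adjusted p = 9.08e-05). Prdx6, a peroxiredoxin that reduces lipid peroxides, had 319, 354 and 306 CPM with CA and 258, 236 and 257 CPM with CGA, against 225, 225 and 227 CPM with LPS alone, in the same order, and a pooled log2 change of 0.34 (SE 0.04, adjusted p = 8.89e-05). Prdx1 was higher at 0.29 (adjusted p = 0.0197), but not without LPS replicate 1 (adjusted p = 0.124), LPS replicate 2 (0.12) or CA replicate 2 (0.0547). With both acids coded as a single group the adjusted p was 0.0533 for Prdx6 and 0.202 for Prdx1, and for Prdx1 it was 0.0834 with no expression filter.

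In the glutathione group Gclm, the regulatory subunit of the rate-limiting enzyme of glutathione synthesis (ENSMUSG00000028124, chromosome 3, 122245487 to 122267215), had 2145, 1996 and 1942 CPM with CA and 1730, 1641 and 1673 CPM with CGA, against 1427, 1443 and 1565 CPM with LPS alone. All acid libraries were above the LPS libraries and the pooled log2 change was 0.32 (SE 0.05, adjusted p = 0.000395). Gss, the second enzyme of that pathway, had 80.9, 85.1 and 73.3 CPM with CA and 60.1, 55.1 and 59.0 CPM with CGA, against 52.2, 51.3 and 53.2 CPM with LPS alone, a step of 0.61 with CA and 0.15 with CGA and a pooled change of 0.38 (SE 0.06, adjusted p = 0.000162). The Gss call was lost with both acids coded as a single group (adjusted p = 0.0754). Abcc4, an exporter of conjugates and cyclic nucleotides (ENSMUSG00000032849, chromosome 14, 118482692 to 118707856), was the other gene higher in the both-acid test, with 115, 90.8 and 117 CPM with CA and 101, 97.5 and 99.5 CPM with CGA, against 79.7, 75.8 and 84.7 CPM with LPS alone. Its log2 change was 0.42 with CA (adjusted p = 0.000188) and 0.31 with CGA (adjusted p = 0.0319), and the both-acid adjusted p was 0.0407. The 1 gene of the group that fell was Gpx1, a selenium-dependent glutathione peroxidase, which had 263, 288 and 262 CPM with CA and 283, 269 and 284 CPM with CGA, against 325, 346 and 328 CPM with LPS alone. It was lower with each acid, at log2 -0.30 with CA (adjusted p = 0.000115) and -0.26 with CGA (adjusted p = 0.0115), and stood second in the both-acid list (adjusted p = 0.0137). Slc7a11, the cystine importer, was not called at 0.26 (SE 0.08, adjusted p = 0.0699), but was called by DESeq2 (adjusted p = 0.00668), without CA replicate 2 (0.0121), with a replicate block (0.0356) and with upper-quartile factors (0.0439).

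Nqo1, the quinone reductase (ENSMUSG00000003849, chromosome 8, 107388225 to 107403205), had 46.4, 41.1 and 42.7 CPM with CA and 40.3, 37.4 and 37.4 CPM with CGA, against 27.7, 30.3 and 32.9 CPM with LPS alone. No acid library overlapped LPS, and the pooled log2 change of 0.43 (SE 0.08, adjusted p = 0.0011) was made of 0.52 with CA and 0.34 with CGA. Pgd, which yields NADPH in the pentose phosphate pathway, had 1638, 1692 and 1531 CPM with CA and 1451, 1429 and 1394 CPM with CGA, against 1315, 1344 and 1358 CPM with LPS alone, with a pooled log2 change of 0.18 (SE 0.04, adjusted p = 0.00314). Hmox1, heme oxygenase 1 (ENSMUSG00000005413, chromosome 8, 75093618 to 75100593), had 3792, 3578 and 3003 CPM with CA and 2745, 2418 and 2645 CPM with CGA, against 2017, 2024 and 2358 CPM with LPS alone. Its groups did not overlap and the pooled log2 change was 0.49 (SE 0.12, adjusted p = 0.0245), but the call was lost without LPS replicate 1 (adjusted p = 0.133), LPS replicate 2 (0.16), CA replicate 1 (0.052), CGA replicate 1 (0.0535) or CGA replicate 3 (0.0525). Blvra, which reduces biliverdin in the next step of heme breakdown, fell by 0.26 on the log2 scale (adjusted p = 0.0146), and Blvrb, which reduces another biliverdin isomer, rose by 0.20. The Blvra call was lost without LPS replicate 2 (adjusted p = 0.0646), and the Blvrb call without LPS replicate 1 (0.0502) or LPS replicate 2 (0.0546). The Blvra call was also lost in a fit of the compared groups alone (0.051), and with both acids coded as a single group so were those of Hmox1 (0.0906) and Blvrb (0.215).

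**Figure D3:**
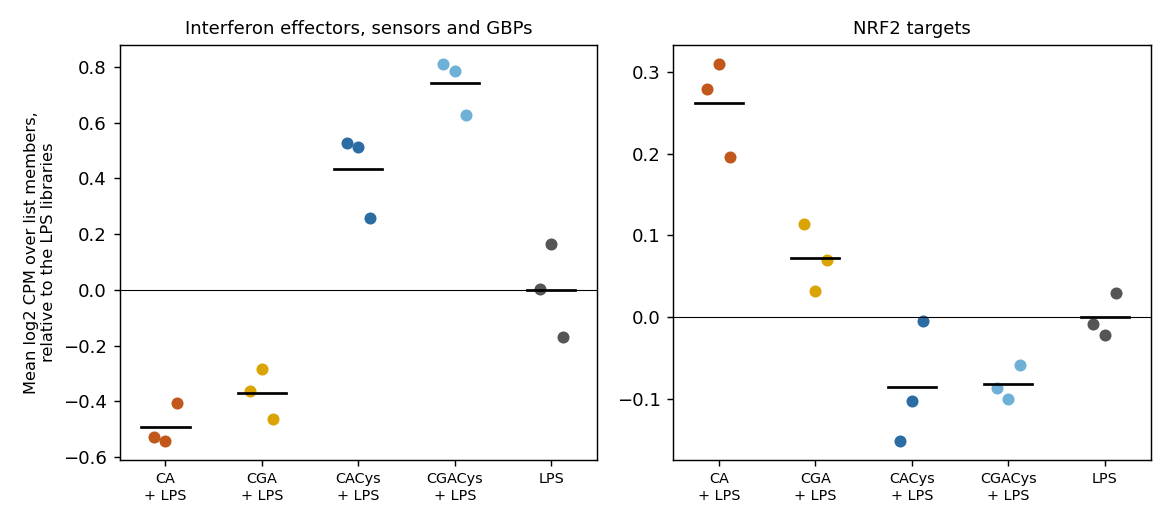
Mean log2 CPM over the members of 2 lists, by library, relative to the mean of the LPS libraries (y axis, log2). Columns from left to right are CA, CGA, CACys and CGACys, each with LPS, and LPS alone. The 6 acid libraries lie at -0.54 to -0.28 for the 61 interferon genes and at 0.03 to 0.31 for the 44 NRF2 targets.

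The means of both lists were also taken by library. For the 61 interferon genes the mean log2 CPM relative to LPS was -0.53, -0.54 and -0.41 with CA and -0.36, -0.28 and -0.47 with CGA, against 0.00, 0.17 and -0.17 with LPS alone. The acid libraries were all lower than the LPS libraries, while LPS replicate 2 was the highest and LPS replicate 3 the lowest of theirs. For the 44 NRF2 targets the values were 0.28, 0.31 and 0.20 with CA and 0.11, 0.03 and 0.07 with CGA, against -0.01, -0.02 and 0.03 with LPS alone. Here the CA libraries stood clear of LPS, and the lowest CGA library was about level with the highest LPS library.

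Genes of macrophage identity were mixed, with 10 of 28 lower and 1 higher, at a median log2 change of -0.11. Over all tested genes 4.01% were lower and 1.03% higher. With CA alone 14 members were lower and 1 higher, with CGA alone 0 were called, and 0 passed the both-acid test. Siglec1, the sialic acid receptor CD169 and an interferon-induced gene (ENSMUSG00000027322, chromosome 2, 131067801 to 131086778), had 23.6, 16.2 and 29.0 CPM with CA and 34.3, 39.1 and 35.2 CPM with CGA, against 46.8, 58.4 and 45.2 CPM with LPS alone. Its pooled log2 change of -0.81 (SE 0.16, adjusted p = 0.00837) was made of -1.14 with CA and -0.47 with CGA, and the adjusted p was 0.0854 without LPS replicate 2 and 0.0768 with both acids coded as a single group. Fcgr4, an activating Fc receptor, had 56.9, 49.6 and 54.7 CPM with CA and 66.9, 64.0 and 65.4 CPM with CGA, against 79.8, 101 and 78.3 CPM with LPS alone, without overlap, and a pooled change of -0.55 (SE 0.10, adjusted p = 0.00297). Lgals9, a galectin, is not in the macrophage identity list and was taken from that of scavenger receptors and lectins. It had 175, 151 and 161 CPM with CA and 189, 194 and 170.3 CPM with CGA, against 229, 262 and 211 CPM with LPS alone. It passed the both-acid test at log2 -0.53 with CA (adjusted p = 0.000138) and -0.34 with CGA (adjusted p = 0.0359), with a both-acid adjusted p of 0.0443. The transcription factor gene Cebpa, a driver of myeloid differentiation (ENSMUSG00000034957, chromosome 7, 35119293 to 35121928), rose, with 31.6, 28.4 and 24.0 CPM with CA and 20.5, 19.1 and 18.1 CPM with CGA, against 13.7, 12.9 and 16.8 CPM with LPS alone. CA libraries were highest and no acid library reached the LPS range, for a pooled log2 change of 0.68 (SE 0.12, adjusted p = 0.00158). The pooled call of Marco, a scavenger receptor, stood beside log2 changes of -0.47 with CA (adjusted p = 1.41e-05) and -0.02 with CGA (adjusted p = 0.942), and was lost with both acids coded as a single group (adjusted p = 0.42). Of the macrophage markers Lyz2, Itgam and Adgre1 were lower at -0.23, -0.15 and -0.16, and the Adgre1 call was lost without any 1 of LPS replicates 1 to 3 (adjusted p of 0.0684 to 0.155) or CGA replicates 1 and 3 (0.054 and 0.0656), in a fit of the compared groups alone (0.056) or with both acids coded as a single group (0.313). The Itgam call was lost without LPS replicate 1 (0.0622), LPS replicate 2 (0.151), with no expression filter (0.0598) and in a fit of the compared groups alone (0.0685). The summed macrophage markers were 6786 to 7138 CPM with CA and 7431 to 7477 CPM with CGA, against 7676 to 7904 CPM with LPS alone, and their part in the results above was not tested. The macrophage identity list had 5 lower genes when LPS replicate 1 was omitted, 4 when LPS replicate 2 was, and 3 when both acids were coded as a single group.

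Among the largest changes over all genes, Sstr5 (ENSMUSG00000050824, chromosome 17, 25489875 to 25497288), which encodes a receptor for somatostatin, had 6.81, 8.31 and 5.90 CPM with CA and 4.47, 5.67 and 5.71 CPM with CGA, against 2.81, 2.46 and 3.83 CPM with LPS alone. All acid libraries were higher than LPS, and the pooled log2 change was 1.01 (SE 0.17, adjusted p = 0.000574). Ch25h, which makes 25-hydroxycholesterol and is interferon-induced (ENSMUSG00000050370, chromosome 19, 34473783 to 34475148), had 1.05, 1.32 and 0.912 CPM with CA and 2.13, 1.93 and 1.36 CPM with CGA, against 2.48, 3.63 and 2.59 CPM with LPS alone. Its pooled log2 change of -1.04 (SE 0.23, adjusted p = 0.00525) was the largest drop among genes whose groups did not overlap and that had a mean of at least 50 counts. The adjusted p was 0.116 without LPS replicate 2. Other large changes named by the same rule were lower for the nucleoside transporter gene Slc28a2, at -0.73 (adjusted p = 0.00143), and higher for Dab2ip, a Ras GTPase-activating protein, at 0.64 (adjusted p = 0.00205), and Chml, a Rab escort protein, at 0.45 (adjusted p = 0.00123).

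Several pathways showed no pooled call. The 8 lists given next were put together because none had such a call, so their count of 0 was fixed by that choice. Over 8 lists (cholesterol synthesis, mitosis, endoplasmic reticulum chaperones, heat shock, oxidative phosphorylation, ribosomal proteins, glycolysis and hypoxia, and metallothionein and zinc) 192 genes were tested with 0 called by edgeR, 18 with an unadjusted p under 0.05 and 1 called by DESeq2. Among all 13251 tested genes edgeR called 668 and gave 1987 an unadjusted p under 0.05, and DESeq2 called 765. Some members of the 8 lists were called with CA alone. Lower were 2 genes of glycolysis and hypoxia, 1 of cholesterol synthesis and 1 of mitosis. Higher were 2 of metallothionein and zinc and 1 of heat shock. Of 33 S phase genes 1 rose, and of 18 p53 targets 3 rose and 3 fell, beside 1.03% higher and 4.01% lower over all genes. Cdkn1a, the cell cycle inhibitor p21, was among those that fell, at -0.21 (adjusted p = 0.00473), with an adjusted p of 0.141 without LPS replicate 2.

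The compounds were next compared with each other, in contrasts that give the LPS group no weight. The fit was the same, so the LPS and control libraries still entered the filter, the scaling and the estimate of spread. Just 2 pairs were formed, CGA against CA and both acids against both cysteine adducts, all at 100 µM and 6 h, and p-values were adjusted over the genes of both comparisons together. Chemically, the first pair differs by the quinic acid ester and the second by the added cysteine.

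CGA against CA called 938 genes (7.08%), of which 464 were higher (3.5%) and 474 lower (3.58%) with CGA. The second comparison has many more small p-values and makes the joint adjustment lenient for the first. Adjusted over its own genes alone, a step added after the data were seen, CGA against CA called 183 genes (1.38%), of which 84 were higher (0.634%) and 99 lower (0.747%). Fitted on the 6 acid libraries alone with that adjustment it called 3. The joint count was 477 without CA replicate 2, 446 without CGA replicate 2 and 1887 without CA replicate 3. Of the 668 genes called with the acids pooled, 196 also differed between the acids (29.3%), or 83 by the own adjustment (12.4%). In 123 of the 126 such genes that fell CGA stood above CA, and in 69 of the 70 that rose CGA stood below CA.

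The difference between the acids was also counted in each list. Of the 44 NRF2 targets 17 were lower with CGA than with CA and 0 higher, at a median difference of -0.16 on the log2 scale, and 12 remained by the own adjustment. Over all genes 3.58% were lower with CGA, or 0.747% by the own adjustment. Left out in turn, the CA and CGA libraries gave 14 to 20. The direction was not particular to NRF2 targets. By the joint adjustment 13 of 35 ribosomal protein genes were lower with CGA and 0 higher, at a median difference of -0.15. Of 22 genes of amino acid stress 11 were lower and 0 higher, at a median difference of -0.14. Of the 61 interferon genes 4 were higher with CGA and 0 lower, at a median difference of 0.14, and 1 by the own adjustment. That share of 6.56% stood beside 3.5% over all genes, and the 1 gene beside 0.634%. Whether the lists differ in this was not tested.

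**Figure D4:**
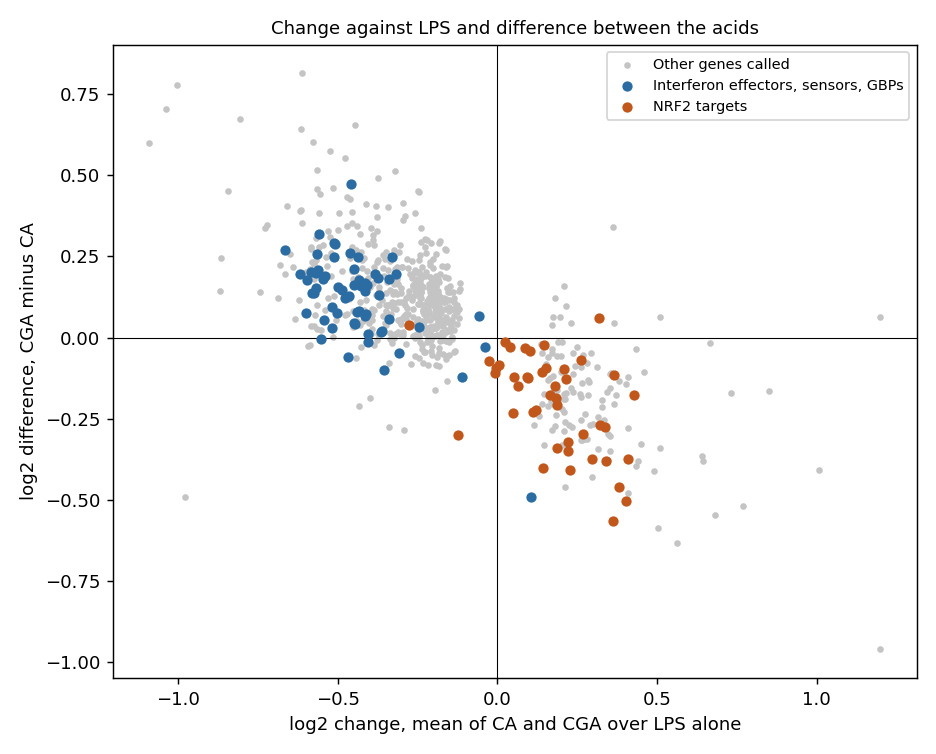
Each point is 1 gene, with its log2 change of the mean of CA and CGA over LPS alone on the x axis and its log2 difference CGA minus CA on the y axis. Blue points are all 61 tested interferon genes, orange points all 44 tested NRF2 targets, and grey points other genes called with the acids pooled (4 lie outside the plotted range). The NRF2 targets that rose lie mostly below 0 on the y axis and the interferon genes mostly within 0.3 of it.

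Srxn1 had 1249, 1167 and 1182 CPM with CGA and 1630, 1553 and 1478 CPM with CA, and CGA minus CA was -0.37 (95% interval -0.50 to -0.25, adjusted p = 3.25e-05, or 0.00144 over its own genes) on the log2 scale. Gss had 60.1, 55.1 and 59.0 CPM with CGA and 80.9, 85.1 and 73.3 CPM with CA, a difference of -0.46 (95% interval -0.59 to -0.34, adjusted p = 8.98e-07, or 0.00017 over its own genes). For Prdx6 it was -0.38 (95% interval -0.48 to -0.28, adjusted p = 9.8e-07) and for Gclm -0.27 (95% interval -0.39 to -0.15, adjusted p = 0.000793). The CGA libraries of these 4 genes all lay below the CA libraries, and each kept its call when any acid library was left out. Nqo1 did not pass, at -0.18 (95% interval -0.36 to 0.00, adjusted p = 0.149), an interval that reaches from close to no difference down to a drop about as large as that of Srxn1.

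In the other direction, Marco had 413, 393 and 379 CPM with CGA and 300, 308 and 259 CPM with CA and CGA minus CA was 0.45 (95% interval 0.33 to 0.56, adjusted p = 4.62e-07) on the log2 scale, with every CGA library above every CA library. Iqgap2, a scaffold protein of the cytoskeleton, showed one of the largest differences, at 0.81 (95% interval 0.40 to 1.22, adjusted p = 0.00289). Opn3, an opsin gene, stood at 45.4, 43.1 and 42.9 CPM with CGA and 68.2, 75.1 and 59.7 CPM with CA, and its difference was -0.63 (95% interval -0.84 to -0.42, adjusted p = 4.35e-05).

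For 4 genes of the both-acid list the interval of the difference was narrow. CGA minus CA was 0.02 (95% interval -0.08 to 0.12, adjusted p = 0.845) for Peli1, 0.00 (95% interval -0.13 to 0.12) for Ccl5, 0.04 (95% interval -0.06 to 0.13, adjusted p = 0.615) for Gpx1 and 0.04 (95% interval -0.05 to 0.13, adjusted p = 0.555) for Acod1. Each of these intervals lies within 0.13 of 0. For Il1a, at 0.22 (95% interval -0.03 to 0.47, adjusted p = 0.207), and for Ifit1, outside that list, at 0.03 (95% interval -0.24 to 0.31, adjusted p = 0.903), the intervals are wider and leave room for a difference. With no expression filter Il1a was called (adjusted p = 0.0209). Of the 59 genes of the list 2 differed between the acids, beside 7.08% of all tested genes. Entry to the list required a change in the same direction with each acid. This count is therefore no independent measure of how alike the acids are.

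The free acids stood far from the cysteine adducts. Acids pooled against adducts pooled called 5093 genes (38.4%), of which 2392 were higher (18.1%) and 2701 lower (20.4%) with the acids. Of the 668 genes called against LPS, 581 differed from the adducts (87%). Among genes that fell against LPS 464 were also lower with the acids than with the adducts and 20 higher, and among those that rose 93 were higher and 4 lower. These counts come from fits that share the acid libraries and are a description.

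**Figure D5:**
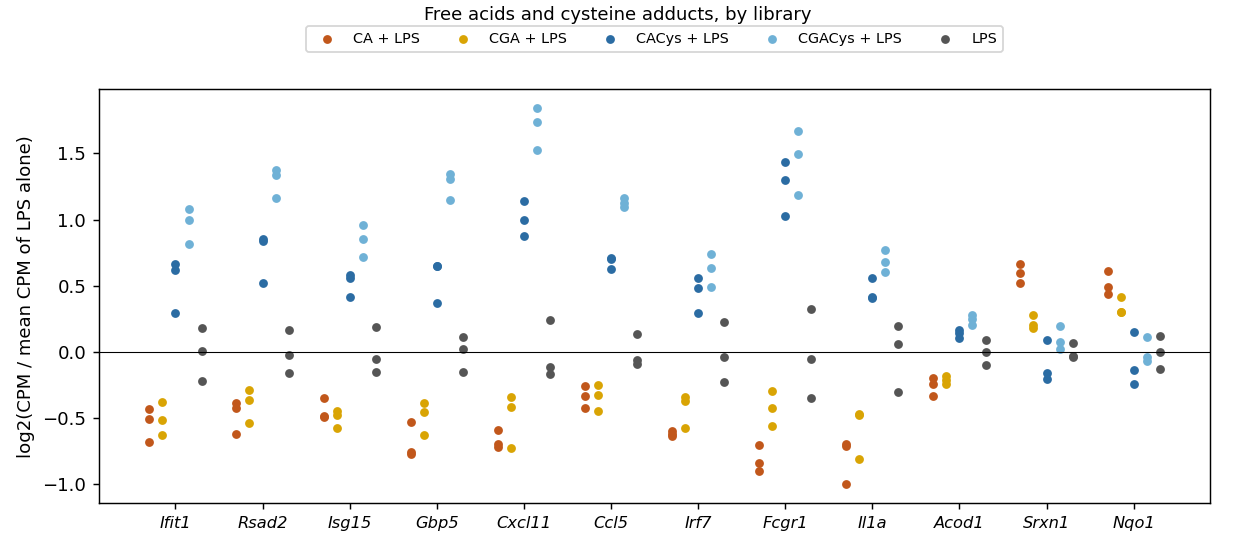
Levels of 12 genes by library as log2 of CPM over the mean of LPS alone (y axis), with CA, CGA, CACys, CGACys (all with LPS) and LPS alone from left to right within each gene. In the interferon and chemokine genes the acids lie below 0 and the adducts mostly above it.

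Of the 61 interferon genes 60 were lower with the acids than with the adducts, at a median difference of -1.06 on the log2 scale. Over all genes 20.4% were lower. Mx1 had 64.3 to 93.1 CPM (median 76.0) over the 6 acid libraries, against 167 to 300.1 CPM (median 236) over the 6 adduct libraries. Its difference, acids minus adducts, was -1.60 (SE 0.08, adjusted p = 9.82e-10). Cxcl11 had 19.7 to 25.7 CPM (median 20.9) over the 6 acid libraries, against 59.9 to 117 CPM (median 82.9) over the 6 adduct libraries, a difference of -1.93 (SE 0.08, adjusted p = 6.85e-14). Fcgr1, the high-affinity Fc receptor, had 62.2 to 94.3 CPM (median 74.9) over the 6 acid libraries, against 236 to 368 CPM (median 299) over the 6 adduct libraries, a difference of -1.98 (SE 0.12, adjusted p = 3.46e-08). In all 3 genes the acid and adduct libraries did not overlap. The means of the 61 genes relative to LPS were 0.53, 0.51 and 0.26 with CACys and 0.81, 0.79 and 0.63 with CGACys, all above the acid libraries given earlier.

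Of the 44 NRF2 targets 31 were higher with the acids than with the adducts and 1 lower, at a median difference of 0.28. Over all genes 18.1% were higher and 20.4% lower. Some lists without a pooled call against LPS had similar shares. Of 32 oxidative phosphorylation genes 21 were higher and 0 lower (median 0.12). Of 24 cholesterol synthesis genes 16 were higher and 1 lower (median 0.17). Srxn1 had 1167 to 1630 CPM (median 1364) over the 6 acid libraries, against 895 to 1178 CPM (median 1064) over the 6 adduct libraries, and the difference was 0.40 (SE 0.04, adjusted p = 6.27e-08). Gclm had 1641 to 2145 CPM (median 1836) over the 6 acid libraries, against 1305 to 1532 CPM (median 1383) over the 6 adduct libraries, and the difference was 0.39 (SE 0.04, adjusted p = 2.56e-08). Hmox1 did not follow, at 2418 to 3792 CPM (median 2874) over the 6 acid libraries, against 2401 to 3466 CPM (median 3100) over the 6 adduct libraries, with overlapping ranges and a difference of -0.01 (SE 0.09, adjusted p = 0.953). Ptgs2, which was not called against LPS, was higher with the acids than with the adducts, at 2129 to 2417 CPM (median 2227) over the 6 acid libraries, against 1521 to 1673 CPM (median 1591) over the 6 adduct libraries, a difference of 0.48 (SE 0.04, adjusted p = 1.33e-11). Cxcl3 likewise was higher, by 1.43 (SE 0.07, adjusted p = 2.27e-11).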

How the data were processed

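The deposited table held raw counts per Ensembl gene for 18 RNA-seq libraries, and per the labels total RNA was extracted with a miRNAeasy kit. Per the submitters' processing notes HISAT, DESeq2 and mm10 were used, without versions or parameters. The counting program, strand setting and annotation release are not given in the sources used here. Positions are RefSeq's for GRCm38.p6, matched by symbol for 12411 of the 13251 tested genes. No sequence was printed, because the promoter table planned for was not used here.

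Counts were fitted with edgeR 4.0.16 (R 4.3.3), with 1 coefficient per group over all 18 libraries, filterByExpr defaults, TMM factors and robust quasi-likelihood F tests. The biological coefficient of variation was 5.68% on 12 residual degrees of freedom. Adjusted p-values are Benjamini-Hochberg over all tested genes, called at 0.05. The both-acid test took the larger of the p-values of CA and of CGA against LPS where both changes had the same sign. Comparisons between compounds were adjusted over the genes of both together. Levels are TMM-scaled CPM and intervals are 95%. The planned exact permutation test is not given, since its p is fixed for groups that do not overlap. Lists were described by counts and medians, with no set test.

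Members, gene lists and the rule for named genes were chosen with earlier results of these data known. The rule took the 12 largest called changes per direction with at least 50 mean counts and no overlap, up to 4 called members per list and direction, 16 genes in every case, and the 6 largest in each comparison between compounds, given here in part. Alternatives were RLE and upper-quartile factors, no filter, 1 CPM in 3 libraries, a replicate block, only the groups compared, both acids as 1 group, DESeq2 1.42.0, and omission of each CA, CGA and LPS library (each adduct library too for acids against adducts). Control libraries were not omitted. Replicates differed by more than counting noise by chi-square tests of their counts. Some genes of these lists are not reported here.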

Additional observations from a re-analysis of the deposited data

Results flagged for a closer look

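The genes looked at here were those with the largest changes against LPS, those given in every case, and those with the largest differences between compounds. They were marked where the tested difference between compounds passed an adjusted p of 0.05 while the gene was also called against LPS. Genes given as list members were not part of this choice, and differences of some of them, such as Gss, Prdx6 and Marco, also passed. Groups of 3 libraries are too small for a test of single outlying values. No explanation was weighed.

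CGA minus CA differed in 11 such genes. On the log2 scale it was -0.41 for Hmox1, -0.37 for Srxn1, -0.27 for Gclm, -0.55 for Cebpa, -0.37 for Dab2ip, -0.33 for Chml and -0.63 for Opn3, all genes that rose with the acids pooled. It was 0.46 for Nos2, 0.68 for Siglec1, 0.45 for Ccl7 and 0.81 for Iqgap2, all genes that fell. Adjusted over its own genes alone, the edgeR test kept Srxn1 (adjusted p = 0.00144), Gclm (0.0163), Cebpa (0.0387), Opn3 (0.00188) and Iqgap2 (0.0384). The other 6 had values of 0.065 to 0.155. The Hmox1 difference lost its call without any 1 of CA replicates 1 and 2 and CGA replicates 1 to 3 (adjusted p of 0.0564 to 0.127), with a replicate block (0.0516) or with no expression filter (0.0868). The Nos2 call was lost without CA replicate 1, CA replicate 2 or CGA replicate 2 (0.0521 to 0.0648), and that of Siglec1 without CA replicate 2 (0.0989) or CGA replicate 2 (0.076). The Ccl7 call was lost without CA replicate 1 or 3 or CGA replicate 2 or 3 (0.0799 to 0.134), that of Dab2ip without CA replicate 1 or 3 or CGA replicate 2 or 3 (0.0659 to 0.193), and that of Chml without CA replicate 1 (0.0579). The Dab2ip call was also lost with a replicate block (0.0553), no expression filter (0.0555) or only the groups compared (0.0774). Calls against LPS were lost in 6 of 17 alternatives for Hmox1, 5 for Iqgap2, 2 each for Nos2 and Siglec1, and 1 for Opn3. For the rest of these genes 0 were lost.

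Acids minus adducts differed by -1.98 for Fcgr1, -1.93 for Cxcl11, -1.87 for Ccnd2, -1.74 for Slfn1, -1.60 for Mx1 and -1.58 for Il23r. These are the 6 largest such differences among genes also called against LPS, and each kept this call when any LPS-treated library was left out. Against LPS the calls of Fcgr1 and Slfn1 were each lost in 8 of 17 alternatives, that of Ccnd2 in 2 and that of Il23r in 1. Those of Mx1 and Cxcl11 were kept in all 17.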

How the results depend on the processing

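With 3 libraries per group, the calls depended on single LPS libraries. Of 126 genes examined singly and called against LPS, not all of them printed, 59 kept their call without LPS replicate 2, 88 without LPS replicate 1, 108 to 123 without other libraries of these groups, 89 with both acids as 1 group, 102 with only the groups compared, 121 to 126 under the other alternatives, and none changed sign. Leaving out each CA, CGA or LPS library gave 235 to 853 pooled calls, 0 to 184 both-acid calls, 446 to 1887 for CGA against CA, 27 to 54 interferon, 4 to 15 class I, 4 to 10 cytokine, 4 to 11 macrophage and 9 to 19 NRF2 genes. Modelling only the groups compared, which uses fewer libraries, gave 439 pooled calls, 0 both-acid calls (624 with an unadjusted p under 0.05), 310 for CGA against CA and 7 class I genes. Both-acid calls were 213 with no expression filter and 164 with DESeq2. Coding both acids as 1 group, which counts their difference as spread, gave 3 macrophage and 6 NRF2 genes. CGA against CA adjusted over its own genes alone, added after the data were seen, gave 183, 43 in the CA, CGA and LPS libraries, and 3 in the acid libraries alone. Acids against adducts stayed at 4573 to 5365. The cause of these shifts was not tested.

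Values near 0 changed sign. Leaving out single libraries, Ptgs2 against LPS ran from -0.011 to 0.062, CGA minus CA for Ccl5 from -0.052 to 0.047, and acids minus adducts for Hmox1 from -0.065 to 0.07, the last also 0.005 with upper-quartile factors.

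No pairing by replicate number was seen: over 9 pairs of same-numbered libraries, deviations from group means correlated at -0.07 to 0.08, with 0 over 0.1. These correlations cannot exclude pairing in part of the genes. With a replicate block there were 678 pooled calls, 154 both-acid calls and 901 for CGA against CA, beside 668, 59 and 938 without it. The planned promoter sequences were not run.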
